A study of Arabidopsis thaliana with 18 samples.

Results

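The 9 genes described here encode the cytosolic translation elongation factors eEF1 and eEF2 of *Arabidopsis thaliana*. They are 4 eEF1A loci (AT1G07920, AT1G07930, AT1G07940 and AT5G60390), a pair of eEF1B alpha loci (AT5G12110 and AT5G19510), a pair of eEF1B beta loci (AT1G30230 and AT2G18110) and *LOS1* (AT1G56070), which encodes eEF2. They were chosen by locus out of 27444 annotated coding genes of chromosomes 1 to 5, and each TIF-cluster was given to the gene it overlapped most on its own strand. By that rule the 9 genes held 524 of the 259431 TIF-clusters in 6 lists. Every gene had TIF-clusters in at least 5 lists.

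eEF1A carries aminoacyl-tRNA to the ribosome in its GTP-bound form and is among the most abundant proteins of the cell. The eEF1B alpha and beta subunits exchange GDP for GTP on eEF1A, so that it can be used again. eEF2 is the GTPase that moves the ribosome along the mRNA by one codon after each peptide bond.

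Transcript isoform sequencing (TIF-seq) reads both ends of one capped and polyadenylated RNA, and a TIF-cluster groups read pairs whose 5′ and 3′ ends lie close together. Seedlings aged 14 days on sucrose medium, grown in long days at 22 °C with nights at 18 °C, were wild type Col-0, *hen2-2*, *spt16-1* or *ssrp1-2*, and wild type and *hen2-2* seedlings were also sampled after 3 h at 4 °C. HEN2 is an RNA helicase that guides the nuclear exosome to its substrates, and SPT16 and SSRP1 are the subunits of the histone chaperone FACT. Each of the 6 lists pools 2 libraries, so no variation between plants could be estimated, no test between lists was possible, and all intervals are 95% intervals for counting error only. Whole seedlings were used, so fewer cells of a type and less RNA per cell cannot be told apart.

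The lists held 410655 to 924907 read pairs in 31998 to 49901 TIF-clusters, and the *hen2-2* list at 4 °C was the shallowest. Its smallest TIF-cluster of 3 read pairs was worth 7.31 read pairs per 1000000 (RPM), against 3.24 RPM in *spt16-1*. *CBF1*, *CBF2* and *CBF3*, transcription factors induced by cold, had no TIF-cluster in the 22 °C lists and 43 to 1039 read pairs in the 4 °C lists, while *COR15A*, a later cold gene, lay between 37.8 and 90.1 RPM in the 6 lists. *HEN2* had no TIF-cluster in the *hen2-2* lists, but it also had none in wild type at 4 °C, so this gene checked the labels poorly. *SPT16* was listed at 33.5 RPM in *spt16-1* and 35.6 RPM in wild type and had no TIF-cluster in the 4 °C lists. *SSRP1* had none in *ssrp1-2* but also none in *hen2-2* at 4 °C, and 5 read pairs in wild type, so it too was a poor check. The leaf markers *RBCS1A*, *CAB1* and *RCA* were at 1443 to 9414, 3188 to 4029 and 1157 to 2208 RPM, with *RBCS1A* highest in *hen2-2* at 4 °C, and the root markers *PYK10* and *BGLU22* at 3396 to 5131 and 21.9 to 75.5 RPM.

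Of the 524 TIF-clusters, 225 were whole-ORF TIF-clusters, 257 had internal starts, 39 ended before the coding sequence and 3 spanned a pair of genes. An internal start lies past the first coding base, either before the end of the coding sequence or in the 3′-UTR. The whole-ORF TIF-clusters, which span the complete coding sequence, took 2409 of the 2794 read pairs of the 9 genes in wild type at 22 °C. Internal starts took 13.8% (12.6 to 15.1) of the read pairs in that list and between 9.63% (*spt16-1*) and 17.6% (*hen2-2* at 4 °C) in the others. TIF-clusters that both began and ended before the coding sequence were listed in the *hen2-2* lists and in none of the other 4.

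The most used 5′-ends are shown because they define the start of each main isoform and anchor the distances given later, and each was the most used over all 6 lists. Positions are 1-based on TAIR10, each run is 5′ to 3′ on the strand of the gene, and capitals mark the bases inside the TIF-cluster. For AT1G07920 and AT1G07940 the start is that of the TIF-clusters before the coding sequence, since those genes had almost no whole-ORF TIF-clusters.
AT1G07920, chr1:2454883-2454912 (+): atttatcgttCTTATTGACCCTAGCCGCTA
AT1G07930, chr1:2458271-2458300 (+): caatttatttCTCTACTTGTCCACTTTTCT
AT1G07940, chr1:2465444-2465473 (-): agctttattcCTTGCTTCATTTTTCGTCAC
AT5G60390, chr5:24288654-24288683 (+): ggattagggtGCGCTCTCATATTTCTCACA
AT5G12110, chr5:3914453-3914482 (+): ctccacagaaACTTAACTTGAGCTGCATCA
AT5G19510, chr5:6583160-6583189 (-): gcttagtctcTCTGATCTCTCTACCTCCCT
AT1G30230, chr1:10638903-10638932 (+): gaactctgcgCCATCCTCTTCTGCCTCCTC
AT2G18110, chr2:7872248-7872277 (+): cctccactacGTCTCTCTCTCTTGCTCTCC
*LOS1*, chr1:20971689-20971718 (-): gcctgcctccTTGCACCTCTTTTCTTTCTC

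The first bases of these transcripts were rich in pyrimidines. C and T filled 18 of the first 20 bases of AT1G30230, AT2G18110 and *LOS1*, 17 of AT1G07930 and AT5G19510, 16 of AT1G07940, 14 of AT5G60390, 13 of AT1G07920 and 11 of AT5G12110. Over the most used whole-ORF 5′-ends of 10100 genes in wild type, the median was 11 and the quartiles were 8 and 14, so 6 of the 9 genes lay above the upper quartile. The sets are not fully alike, since the ends of the 9 genes come from all 6 lists. Those of AT1G07920 and AT1G07940, the second among these 6 genes, are not whole-ORF ends. The ends are outer limits of merged read pairs and can lie some bases before the true start.

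In the annotated promoters, from 250 bases before to 50 bases after the annotated start, the telo box AAACCCTA was found on either strand at 5 of the 9 genes (AT1G07930, AT1G07940, AT5G60390, AT5G19510 and *LOS1*), against 6.22% of all 27444 coding genes. The site II letters TGGGCC or TGGGCT were found on either strand at 6 of the 9 (AT1G07940, AT5G60390, AT5G19510, AT1G30230, AT2G18110 and *LOS1*), against 21.7% of all. The letters of one motif are not contained in the other. These matches describe the sequence, and binding was not measured.

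The eEF1A family was the largest of these families in reads, and its reads came almost wholly from AT5G60390 and AT1G07930. AT5G60390 had 1378 RPM (1300 to 1460) in wild type, 1410 in *hen2-2*, 736 in *spt16-1*, 1113 in *ssrp1-2*, 1068 in cold wild type and 489 in cold *hen2-2*. AT1G07930 had 789.9 RPM (731 to 852), 934, 499.5, 797, 614 and 409 in the same order. For both genes the *hen2-2* list at 4 °C was lowest and *spt16-1* next, and the intervals of each stood apart from that of wild type at 22 °C.

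AT1G07920 and AT1G07940, which encode the same protein factor, were listed at low levels in 4 of the lists. AT1G07920 had 7 read pairs in wild type, 4 in *spt16-1*, 15 in *ssrp1-2* and 8 in wild type at 4 °C, but 42 in *hen2-2* and 35 in *hen2-2* at 4 °C. AT1G07940 had 4, 0, 10 and 6 read pairs in the first set of lists, and 33 and 34 in the *hen2-2* lists. The intervals of both genes in the *hen2-2* lists lay above those of the other lists.

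**Figure D1:**
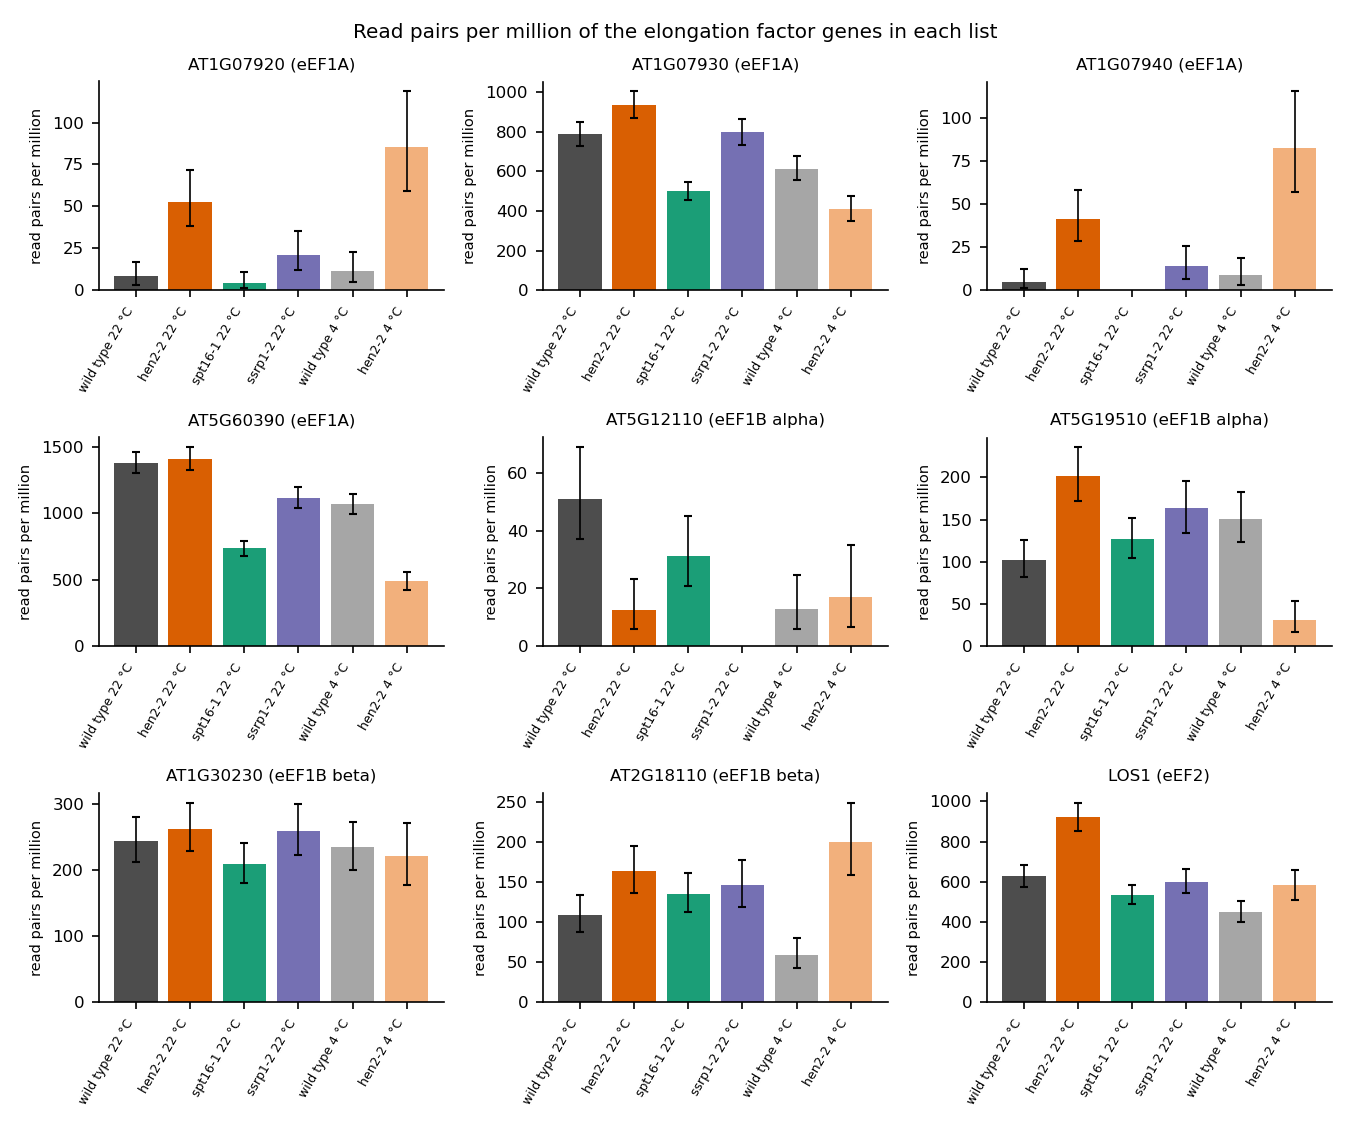
Bars show read pairs per 1000000 (y axis, from 0) of each of the 9 genes in the 6 lists (x axis), and error bars are exact 95% Poisson intervals, drawn where read pairs were listed. AT5G60390 and AT1G07930 were lowest in *hen2-2* at 4 °C and next lowest in *spt16-1*, and AT1G07920 and AT1G07940 were high in the *hen2-2* lists alone.

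AT5G60390 gave the largest share of the eEF1A read pairs in each of the 6 lists. AT5G60390 held 63.2% (61.0 to 65.4) of them in wild type, 57.8% in *hen2-2*, 59.4% in *spt16-1*, 57.2% in *ssrp1-2*, 62.7% in wild type at 4 °C and 45.9% (41.3 to 50.6) in *hen2-2* at 4 °C. AT1G07930 held between 36.1% and 41.0% in all 6 lists. AT1G07920 and AT1G07940 each held between 0 and 2.17% in 5 lists, and 7.99% (5.80 to 10.9) and 7.76% (5.61 to 10.7) in *hen2-2* at 4 °C.

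Counting whole-ORF TIF-clusters alone, AT1G07930 and AT5G60390 held all eEF1A read pairs in wild type, *spt16-1* and wild type at 4 °C. AT5G60390 then held 59.6% (57.2 to 61.9) in wild type, and the pair were level in *hen2-2* at 4 °C with 143 read pairs each. AT1G07940 had no whole-ORF TIF-cluster in any of the 6 lists. AT1G07920 had 1 in each of 3 lists, with 3 read pairs in *hen2-2*, 3 in *ssrp1-2* and 5 in *hen2-2* at 4 °C. All 3 of them began at the same base, 30 nt before the start codon.

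How well these paralogues can be told apart depends on their sequences, because the authors kept unique alignments only. The coding sequences are 1350 nt in each, and AT1G07920 differs from AT1G07940 at 6 positions, from AT1G07930 at 16 and from AT5G60390 at 83. Of all windows of 50 coding bases, 89.8% were unique for AT5G60390, 36.8% for AT1G07930, 11.2% for AT1G07940 and 9.15% for AT1G07920, counting exact matches in the genome and in the spliced paralogues. In the leaders and the 3′-UTRs every such window was unique in all 4 genes. At 75 bases, about the length that the cycles of the sequencing kit allow each read of a pair, 96.7%, 52.5%, 15.4% and 14.2% of coding windows were unique in the same order. The part of sequence sharing in the low levels of AT1G07920 and AT1G07940 was not tested.

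The 3 mutant lists at 22 °C also held a long TIF-cluster that joins 2 eEF1A loci. It ran from the 5′-end of AT1G07920 to the 3′-end of its downstream neighbour AT1G07930, with 3 read pairs in *hen2-2* (chr1:2454888-2460694), 3 in *spt16-1* (chr1:2454888-2460693) and 3 in *ssrp1-2* (chr1:2454893-2460694). No such TIF-cluster was listed in wild type at either temperature or in *hen2-2* at 4 °C. The number of 3 read pairs is the smallest that the lists hold, and the part of the high identity of these neighbours in this TIF-cluster was not tested.

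**Figure D2:**
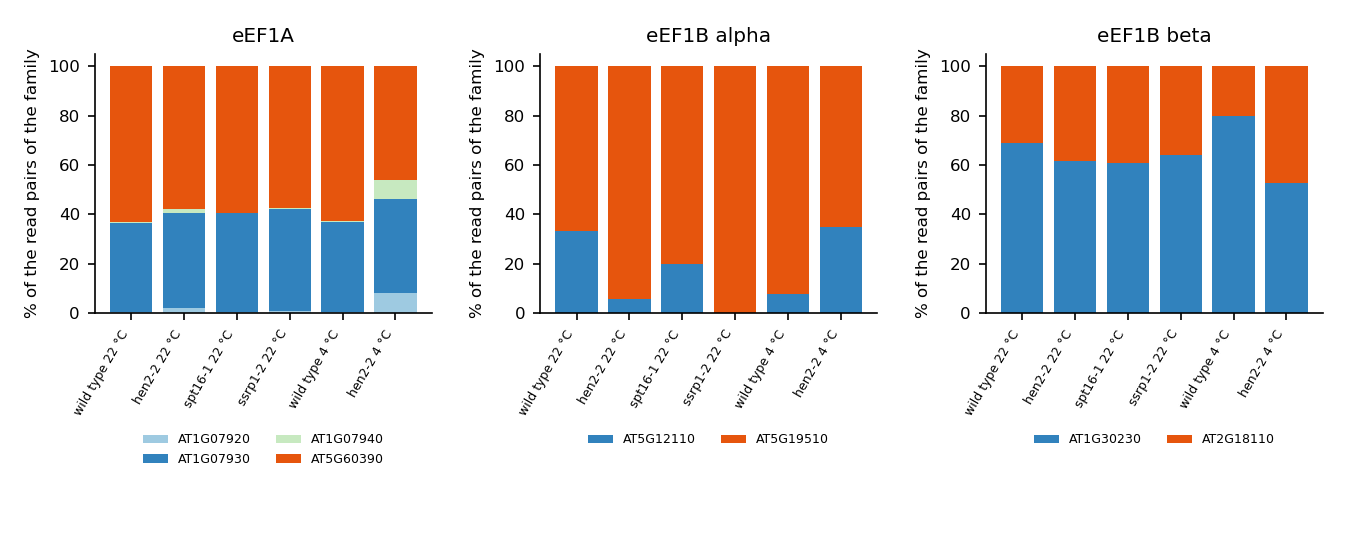
Stacked bars show the percentage of the read pairs of each family (y axis) that came from each paralogue in the 6 lists (x axis). AT5G60390 gave 57.2% to 63.2% of eEF1A in 5 lists and 45.9% in *hen2-2* at 4 °C, and AT5G19510 gave all eEF1B alpha read pairs in *ssrp1-2*.

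The eEF1B alpha pair, the nucleotide exchange subunits with short leaders, differed between lists in level and in the balance of the pair. AT5G19510 had 102 RPM (81.6 to 126) in wild type, 201 in *hen2-2*, 126.5 in *spt16-1*, 163 in *ssrp1-2*, 151 in wild type at 4 °C and 31.7 (16.9 to 54.1) in *hen2-2* at 4 °C. AT5G12110 had 51.0 RPM (36.9 to 68.7), 12.6, 31.4, none listed, 13.0 and 17.0 in the same order. AT5G19510 was highest in *hen2-2* at 22 °C and AT5G12110 in wild type at 22 °C.

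AT5G19510 therefore took 66.7% (58.2 to 74.2) of the pair's read pairs in wild type, 94.1% (89.5 to 96.8) in *hen2-2*, 80.1% in *spt16-1*, all 115 in *ssrp1-2*, 92.0% (85.5 to 95.7) in wild type at 4 °C and 65.0% (43.3 to 81.9) in *hen2-2* at 4 °C. The last share rests on 20 read pairs. Antisense reads were no part of these values, since TIF-clusters keep their strand. AT5G12110 overlaps AT5G12120 on the opposite strand, which had 39 to 105 read pairs per list.

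In the eEF1B beta pair AT1G30230 gave the larger share of read pairs in each list, from 52.6% in *hen2-2* at 4 °C to 79.8% in wild type at 4 °C. By whole-ORF read pairs AT2G18110 held more in *spt16-1*, with 125 against 116. AT1G30230 had 244 RPM (212 to 280) in wild type, 263 in *hen2-2*, 210 in *spt16-1*, 259 in *ssrp1-2*, 235 in wild type at 4 °C and 222 in *hen2-2* at 4 °C, and the 6 intervals overlapped. AT2G18110 had 109 RPM (88.0 to 134), 164, 135, 146, 59.4 (42.6 to 80.6) and 199.7 (159 to 248). Wild type at 4 °C was lowest and *hen2-2* at 4 °C highest for AT2G18110. In that last list 48 of its 82 read pairs were TIF-clusters that ended before the coding sequence, and its whole-ORF level was 82.8 RPM.

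*LOS1*, the single eEF2 gene with reads, had 626 RPM (574 to 682) in wild type, 920 (855 to 989.5) in *hen2-2*, 536 in *spt16-1*, 601 in *ssrp1-2*, 449 (401 to 502) in wild type at 4 °C and 582 in *hen2-2* at 4 °C. Its level was highest in *hen2-2* and lowest in wild type at 4 °C. The eEF2-like locus AT3G12915 had no TIF-cluster in the 6 lists.

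Between lists, a gene was called where its RPM differed by 1.5-fold or more and the 2 lists together held at least 40 of its read pairs. Over 6 comparisons the 9 genes gave 45 such tests, with 8 calls higher and 14 lower. Comparisons share lists, so their calls are not independent.

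In *hen2-2* against wild type at 22 °C, 2 of 8 genes were called higher (background 20.3% of 4949 coding genes) and 1 lower (15.9%). AT1G07920 was 6.37-fold higher (2.84 to 16.8), AT5G19510 was 1.98-fold higher (1.51 to 2.597) and AT5G12110 had a ratio of 0.247 (0.111 to 0.499). Counting whole-ORF TIF-clusters alone ended the call of AT1G07920, with 3 read pairs in *hen2-2* and 0 in wild type. *LOS1*, at a ratio of 1.47 (1.31 to 1.65), and AT2G18110, with an interval of 1.14 to 1.98, stayed just under the threshold. AT1G07940, with too few read pairs for the call, had 33 against 4.

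Against wild type, the eEF1A genes AT5G60390 and AT1G07930 were called lower in *spt16-1* and not called in *ssrp1-2*, and the other eEF1A genes had too few read pairs for the call. In *spt16-1*, none of 7 genes was called higher (23%) and 3 were called lower (16.2%), AT5G60390 at a ratio of 0.534 (0.485 to 0.588), AT1G07930 at 0.632 (0.560 to 0.713) and AT5G12110 at 0.615 (0.370 to 1.01). The interval of AT5G12110 included 1, and with TIF-clusters of at least 10 read pairs alone its log2 ratio turned to 0.79. In *ssrp1-2*, 1 of 7 was called higher (22.1%), AT5G19510 at 1.60 (1.20 to 2.14), and 1 lower (18.7%), AT5G12110 with 43 read pairs in wild type and none listed in *ssrp1-2*, taken at a floor of 3. AT5G60390 and AT1G07930 had ratios of 0.808 and 1.01 in *ssrp1-2*. The 2 mutants were not tested against each other.

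In wild type after 3 h at 4 °C, none of 7 genes was called higher (23.9%) and 2 were called lower (18.8%). These were AT5G12110 at a ratio of 0.256 (0.110 to 0.532) and AT2G18110 at 0.544 (0.367 to 0.795). AT5G60390, AT1G07930 and *LOS1* had ratios of 0.775, 0.778 and 0.717, below 1 with their intervals but inside the threshold. AT5G19510 went the other way, with a ratio of 1.48 (1.10 to 1.99).

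In *hen2-2*, the cold list showed larger differences from its 22 °C list. Of 8 genes, 4 were called lower (28.2%) and 2 higher (15.4%). AT5G19510 had a ratio of 0.157 (0.0819 to 0.277), AT5G60390 of 0.347 (0.297 to 0.404), AT1G07930 of 0.438 (0.368 to 0.518) and *LOS1* of 0.632 (0.544 to 0.733). AT1G07940 was 1.99-fold and AT1G07920 1.61-fold higher, both with at most 42 read pairs in a list and the second with an interval of 0.999 to 2.59. Of whole-ORF read pairs AT1G07940 had none in either list and AT1G07920 had 5 and 3. The median log2 ratio of all genes tested in this comparison was -0.19, and it was lower for genes with wide TIF-clusters. Among genes with whole-ORF widths of 2000 to 2500 nt, to which AT5G60390 and AT1G07930 belong, the median ratio was 0.829 and the quartiles were 0.613 and 1.12. Among those of 1000 to 1500 nt, to which AT5G19510 belongs, they were 0.931, 0.699 and 1.36. The ratios of these 3 genes lay below the lower quartile of their width class. *LOS1*, in the class of 2500 nt or wider with a median of 0.759 and quartiles of 0.537 and 1.03, lay inside its quartiles.

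Against wild type at 4 °C, the *hen2-2* list at 4 °C gave 3 calls higher (14.1%) and 3 lower (26.8%) among 8 genes. AT1G07940 was 9.52-fold (3.95 to 27.8), AT1G07920 7.35-fold (3.35 to 18.4) and AT2G18110 3.36-fold (2.28 to 5.02) higher. TIF-clusters that ended before the coding sequence held 34 of 34, 24 of 35 and 48 of 82 of their read pairs in *hen2-2* at 4 °C. AT1G07940 had no whole-ORF read pair in either list and AT1G07920 had 5 against 0. AT2G18110 had whole-ORF levels of 82.8 and 59.4 RPM, less than 1.5-fold apart, and its log2 ratio of 1.75 became 0.60, just past the threshold, when whole-ORF read pairs were scaled to their own total in each list. AT5G19510 had a ratio of 0.210, AT5G60390 of 0.458 and AT1G07930 of 0.666. Scaling the lists by their median ratio instead of their totals moved AT1G07930 to 0.696, inside the threshold.

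**Figure D3:**
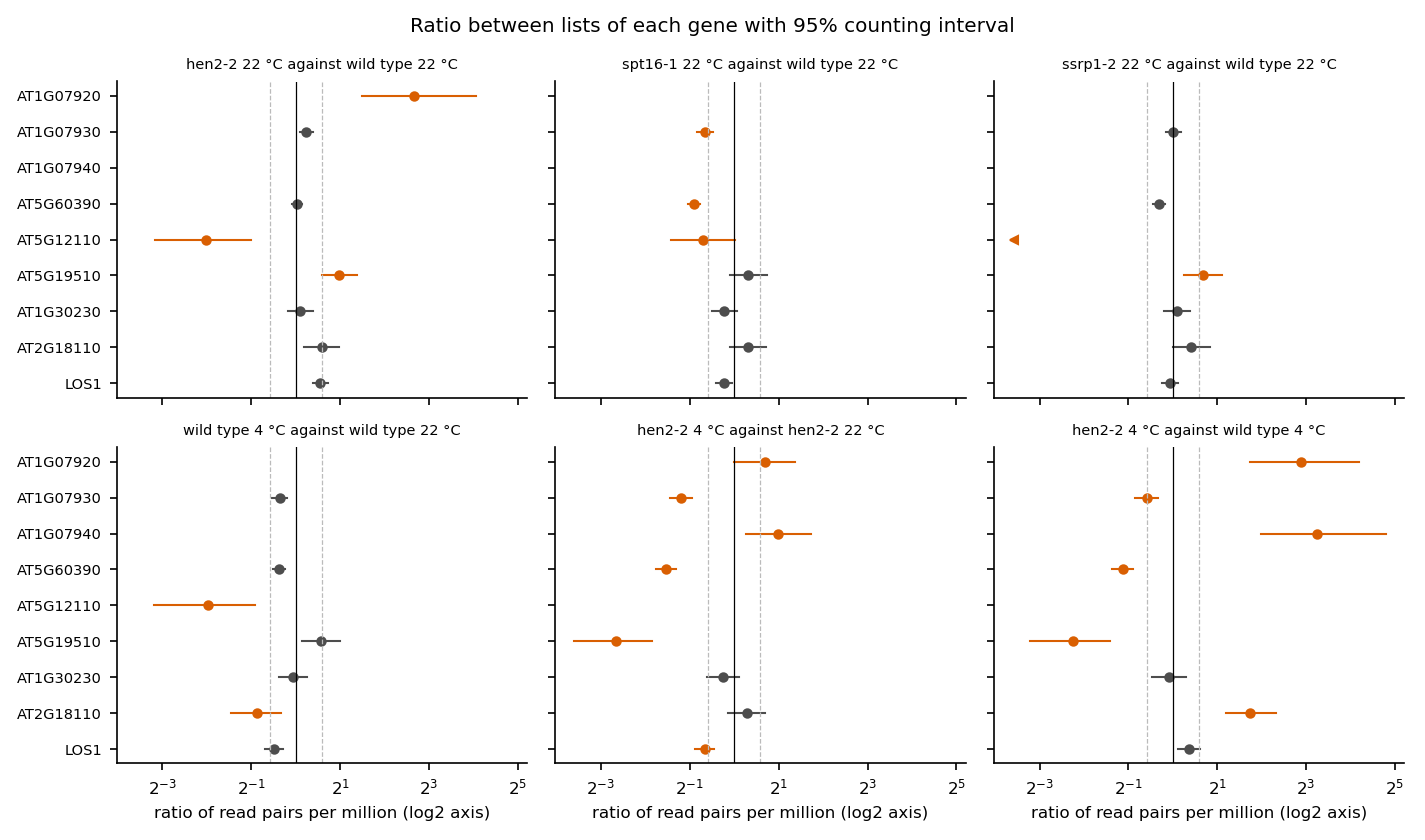
Points show the ratio of read pairs per 1000000 between 2 lists (x axis, log2 scale) of each gene with at least 40 read pairs in the lists together, lines are exact 95% counting intervals, dashed lines mark 1.5-fold, colour marks calls, and the triangle without a line is the gene listed at 0 and taken at 3 read pairs. AT5G19510 lies right of 1 in wild type at 4 °C with 1.48 and left of 1 in *hen2-2* at 4 °C with 0.157.

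The TIF-clusters that ended before the coding sequence form a class of their own at 7 of the 9 genes. They were 57 to 151 nt wide with a median of 94 nt, each held 3 to 22 read pairs, and they numbered 19 in *hen2-2* and 20 in *hen2-2* at 4 °C. No such TIF-cluster was listed at these genes in wild type, *spt16-1*, *ssrp1-2* or wild type at 4 °C. The 7 genes were the 4 eEF1A genes, both eEF1B beta genes and *LOS1*, the same in each *hen2-2* list, and the eEF1B alpha genes, whose annotated leaders span 15 and 111 nt, had none.

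Over all coding genes with a TIF-cluster, 9.04% had one that ended before the coding sequence in *hen2-2*, 10.7% in *hen2-2* at 4 °C and 0.783% in wild type. Among genes with at least 200 read pairs the share was 16.2% in *hen2-2* and 20.1% in *hen2-2* at 4 °C, and all 4 and both members of that depth had one. Among genes with an annotated intron before the coding sequence the share in *hen2-2* was 21.3%, with all 7 members in this set. Such TIF-clusters took 4.97% of the read pairs of the 9 genes in *hen2-2* and 18.3% in *hen2-2* at 4 °C. They took 1.29% and 2.04% of all read pairs placed on coding genes in those lists.

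At AT1G07940 they were all that the *hen2-2* lists held, with 33 and 34 read pairs. At AT1G07920 they were 20 of 42 read pairs at 22 °C and 24 of 35 at 4 °C, and at AT2G18110 32 of 130 and 48 of 82. At the highly used AT1G07930 and AT5G60390 they were 18 of 742 and 17 of 1120 read pairs at 22 °C, and 22 of 168 and 8 of 201 at 4 °C. AT1G30230 had 12 and 6 read pairs and *LOS1* 26 and 17. The number of read pairs per gene thus ranged from 12 to 33 at 22 °C while the whole-ORF read pairs of the same genes ranged from 0 to 933. At 4 °C the ranges were 6 to 48 and 0 to 169.

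Their 3′-ends mostly lay just past the end of the first exon. Of the 39 TIF-clusters, 38 ended inside the first intron of at least 1 annotated model, and 1 ended in the exon, 8 nt before its end, at AT1G07930. The 3′-ends lay from 8 nt before to 92 nt after the end of the first exon, with a median of 41 nt after it, and 242 to 677 nt before the start codon. For 18 of the 39 the annotated models disagreed on whether the base is intronic, at AT1G07940, AT5G60390 and *LOS1*. By at least 1 model, 94.7% of them in *hen2-2* and 100% in *hen2-2* at 4 °C ended in the intron. At the other genes with an intron before the coding sequence, it was 61.0% (57.6 to 64.3) of 820 TIF-clusters in *hen2-2* and 61.0% (57.4 to 64.4) of 730 in *hen2-2* at 4 °C, against 13.9% (7.96 to 23.2) of 79 in wild type.

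The junction of first exon and intron is shown for the 7 genes because 38 of the 39 TIF-clusters reach past it. Capitals mark the intron of at least 1 annotated model, which begins with GT in each.
AT1G07920, chr1:2454928-2454957 (+): tatctctgagGTAAGCGTTAACGTACCCTT
AT1G07930, chr1:2458336-2458365 (+): tttgcgtgagGTTAGCTTTTCATACGATTC
AT1G07940, chr1:2465390-2465419 (-): tatctctgagGTAAGCTTTTTCGTCACCAT
AT5G60390, chr5:24288715-24288744 (+): ttacttgcagGTTAGATATTTTCTCTCTTT
AT1G30230, chr1:10638963-10638992 (+): tttagctcagGTTTGTTCTTCGATTTCTCC
AT2G18110, chr2:7872298-7872327 (+): attgctacagGTTTGTTGCTTCTTCGATTC
*LOS1*, chr1:20971646-20971675 (-): tctctctaagGTTAGTCCCTTGTGTAGATC

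The 30 bases up to the most used 3′-end of this class in *hen2-2* at 22 °C are shown next, since these RNAs end in or near them. Like the 5′-ends, these 3′-ends are limits of merged read pairs and can lie some bases from the true end. At *LOS1* another end, at 44 nt past the first exon, had the same 9 read pairs as the one shown at 67 nt. All bases are in the intron of at least 1 annotated model and so in capitals. At AT1G07940, AT5G60390 and *LOS1* the annotated models disagree on whether the end shown is intronic.
AT1G07920, chr1:2454949-2454978 (+): CGTACCCTTAGATCGTTCTTTTTCTTTTTC
AT1G07930, chr1:2458358-2458387 (+): TACGATTCTTCGATTTGAATTCTTATTCTT
AT1G07940, chr1:2465375-2465404 (-): CTTTTTCGTCACCATCTTCGATCTGCTTCT
AT5G60390, chr5:24288727-24288756 (+): TAGATATTTTCTCTCTTTAGTGTCTCCGAT
AT1G30230, chr1:10638984-10639013 (+): GATTTCTCCCGTAAGATCTTTTGTTCTTAC
AT2G18110, chr2:7872335-7872364 (+): CTTTCGCCTCCAATTAGGGTTTGTTTCGAC
*LOS1*, chr1:20971599-20971628 (-): ATTTCATCTTCCTTGGTTTGATTTAGGAAT

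T filled 12 to 16 of these 30 bases. The hexamer AATAAA, the best known poly(A) signal of animals and plants, was in none of the last 35 bases before these 7 ends on the strand of the gene. Neither the T content of other introns nor the share of other 3′-ends with AATAAA was computed. The values are therefore not shown to be particular to this class. The 10 genomic bases after them held 0 to 4 A, with a longest run of 3 A, at AT2G18110. Runs of 6 to 9 A had been used by the authors to discard TIF-clusters.

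**Figure D4:**
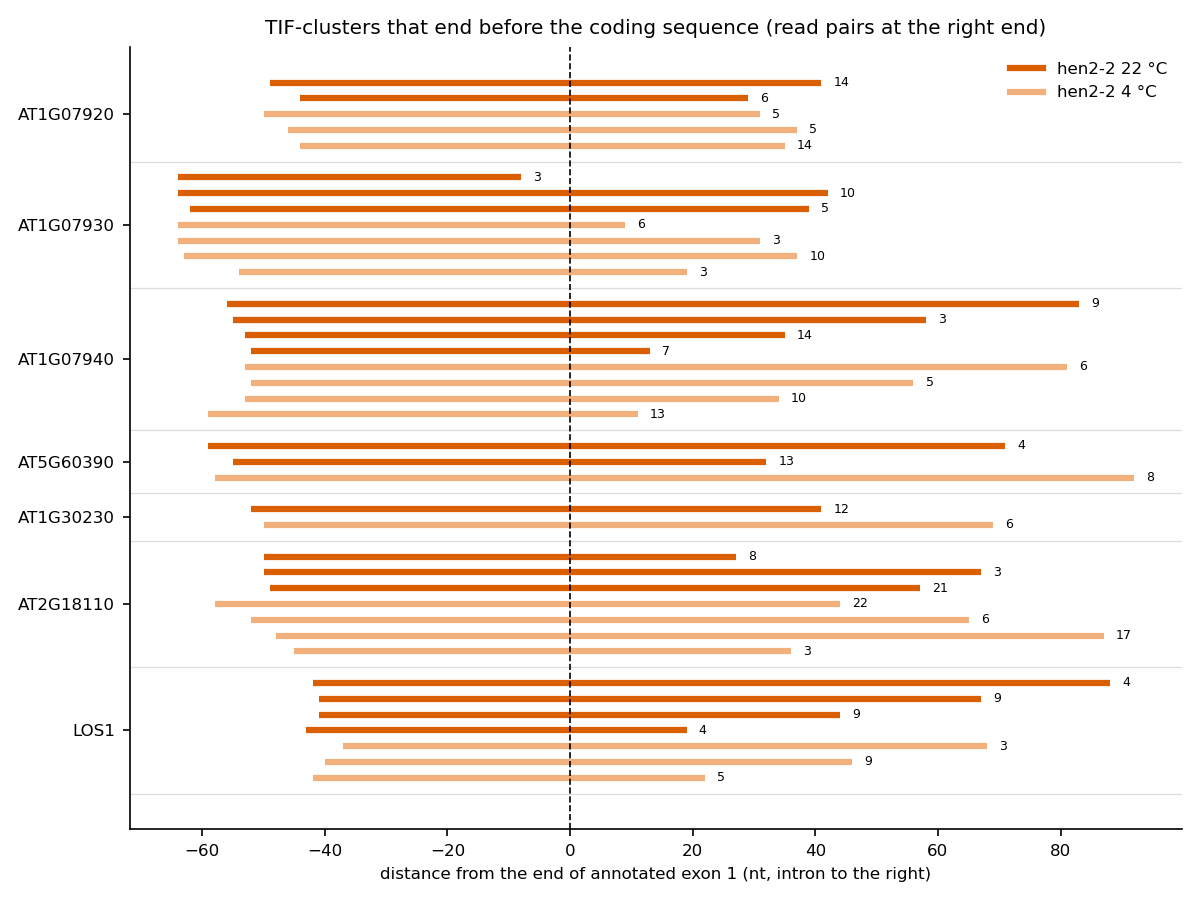
Each line is 1 TIF-cluster that ended before the coding sequence, drawn to scale from its 5′-end to its 3′-end against the end of the first exon at 0 (x axis, nt), in *hen2-2* at 22 °C and at 4 °C, with its read pairs at the right end. All lines but 1 at AT1G07930 reach past 0 into the intron of at least 1 annotated model, to at most 92 nt.

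The annotated start was a poor guide to this class. Counting TIF-clusters under 350 nt that lay within 40 nt of the annotated start and missed the annotated 3′-end gave 4 in *hen2-2* and 3 in *hen2-2* at 4 °C, all at *LOS1*. The most used whole-ORF start in wild type lay 32 nt downstream of the annotated start at *LOS1*, but 68 nt at AT5G60390, 99 nt at AT1G07930 and 56 nt at AT2G18110. With the most used whole-ORF 5′-end in place of the annotated start, the count in *hen2-2* was 13.

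The whole-ORF TIF-clusters of a gene began and ended within a limited span. At AT5G60390 all 55 of them began 516 to 608 nt before the start codon and ended 163 to 284 nt after the coding sequence, and the most used one held 57.5% of the whole-ORF read pairs in wild type. At AT1G07930 the 29 began 705 to 762 nt before the start codon and ended 55 to 284 nt after the coding sequence. In wild type AT5G60390 had 9 whole-ORF isoforms and AT1G07930 had 7.

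*LOS1* had 48 whole-ORF TIF-clusters over the 6 lists, with starts 606 to 677 nt before the start codon apart from 1 in *ssrp1-2* that began 9 nt before it and held 5 read pairs. AT1G30230 had 27, AT2G18110 14, AT5G19510 31 and AT5G12110 18, with the last in 5 lists. The leaders of the eEF1B alpha genes were short, with starts 37 to 100 nt before the start codon at AT5G19510 and 18 to 68 nt at AT5G12110.

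Internal starts gave a large part of the TIF-clusters listed at AT5G60390, AT1G30230 and *LOS1*. The paper reports that starts called by TIF-seq are biased by an artefact towards the 3′-ends of genes. Its authors filtered starts by TSS-seq for this reason, and the part of any remaining bias in the starts below was not tested. All 257 internal-start TIF-clusters of the 9 genes reached past the end of the coding sequence. For those that began in the 3′-UTR this holds by definition. AT5G60390 had 107 at 35 sites, where a site joins 5′-ends within 10 nt over the lists, *LOS1* had 82 at 35 sites and AT1G30230 had 41 at 10 sites. AT1G07930 had 5, and AT2G18110 and AT5G12110 had none.

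Among the 3 genes with most internal-start TIF-clusters, AT1G30230 had the highest share of read pairs with an internal start in each list. Its share was 43.2% in wild type, 33.5% in *hen2-2*, 40.2% in *spt16-1*, 36.1% in *ssrp1-2*, 32.1% in wild type at 4 °C and 45.1% in *hen2-2* at 4 °C. At AT5G60390 it was 15.5%, 15.2%, 10.3%, 12.5%, 13.8% and 24.9%, and at *LOS1* 18.2%, 18.9%, 10.3%, 14.2%, 9.68% and 22.2%. At each of these 3 genes the shares in *spt16-1* and *ssrp1-2* lay below that in wild type at 22 °C and the share in *hen2-2* at 4 °C was highest. The intervals of *spt16-1* and wild type stood apart at AT5G60390 and *LOS1*, those of *hen2-2* at 4 °C and wild type at AT5G60390, and those of wild type at 4 °C and at 22 °C at *LOS1*. At these 3 genes the intervals of every other list overlapped that of wild type at 22 °C. The intervals do not cover the loss of TIF-clusters under 3 read pairs, which depends on how deeply a gene was read. AT5G60390 had 681 read pairs in *spt16-1* against 1162 in wild type. With a minimum of 10 read pairs the share of the 9 genes in wild type fell from 13.8% to 7.57%. The part of depth in the differences between lists was not tested. At AT1G07920 and AT1G07940, with at most 15 read pairs outside the *hen2-2* lists, 80% to 100% of the read pairs listed there had an internal start. In *hen2-2* these shares were 45.2% and 0% at 22 °C and 17.1% and 0% at 4 °C. Over all read pairs placed on coding genes the share was 11.8%, 9.69%, 9.445%, 8.42%, 9.16% and 11.9% in the same order of lists.

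Sites used in every list were few. AT5G60390 had 1, at 1238 to 1247 nt from the start codon in an exon, with 45 read pairs in wild type, 15 in *hen2-2*, 24 in *spt16-1*, 6 in *ssrp1-2*, 13 in wild type at 4 °C and 6 in *hen2-2* at 4 °C. AT1G30230 had 1, at 1063 to 1076 nt, with 39, 22, 41, 14, 20 and 11 read pairs, and *LOS1* had 1, at 1888 to 1896 nt, with 26, 12, 18, 4, 4 and 7. At AT1G07920 a site in the 3′-UTR, 1560 to 1580 nt from the start codon, was also in all 6 lists, with 4 to 8 read pairs in each, and gave all reads of this gene in wild type. Distances are genomic and include introns.

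The coding bases around the first 3 of these sites are shown because the sites recurred in all lists, with capitals inside the TIF-cluster. Each site joins nearby 5′-ends, and the exact base where the capitals begin was not a 5′-end in every list.
AT5G60390, chr5:24290455-24290484 (+): aggagcccaaGTTTTTGAAGAATGGTGACG
AT1G30230, chr1:10640339-10640368 (+): atcgaagagcAACTCACTGTTGAACCGATC
*LOS1*, chr1:20969168-20969197 (-): agcacattgtTGCTGGTGCAGGAGAACTCC

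The same coding positions of the 4 eEF1A genes, from coding base 1140 to 1169, are shown with capitals where a gene differs from AT5G60390. AT1G07920 differs at 2 positions, and AT1G07930 and AT1G07940 differ at 3.
AT5G60390, chr5:24290465-24290494 (+): gtttttgaagaatggtgacgctggtatggt
AT1G07920, chr1:2456791-2456820 (+): gttCttgaagaatggtgaTgctggtatggt
AT1G07930, chr1:2460248-2460277 (+): AttCttgaagaatggtgaTgctggtatggt
AT1G07940, chr1:2463531-2463560 (-): AttCttgaagaatggtgaTgctggtatggt

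Sequence shared by the eEF1A paralogues may bear on which internal starts can be placed. A window of 50 coding bases of AT5G60390 had a median of 3 differences to the nearest paralogue and none in 10.2% of windows, and the 103 internal starts of AT5G60390 that could be placed also had a median of 3. For AT1G07930, AT1G07940 and AT1G07920 the windows without a difference were 63.2%, 88.8% and 90.9%. The numbers of internal starts of the 4 genes may therefore not be comparable. These windows cover the 5′-end alone, while the 3′-end of each internal-start TIF-cluster lay past the coding sequence, where windows were unique. Placement by read pairs was not tested. The authors kept only TIF-clusters with a start seen by TSS-seq.

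**Figure D5:**
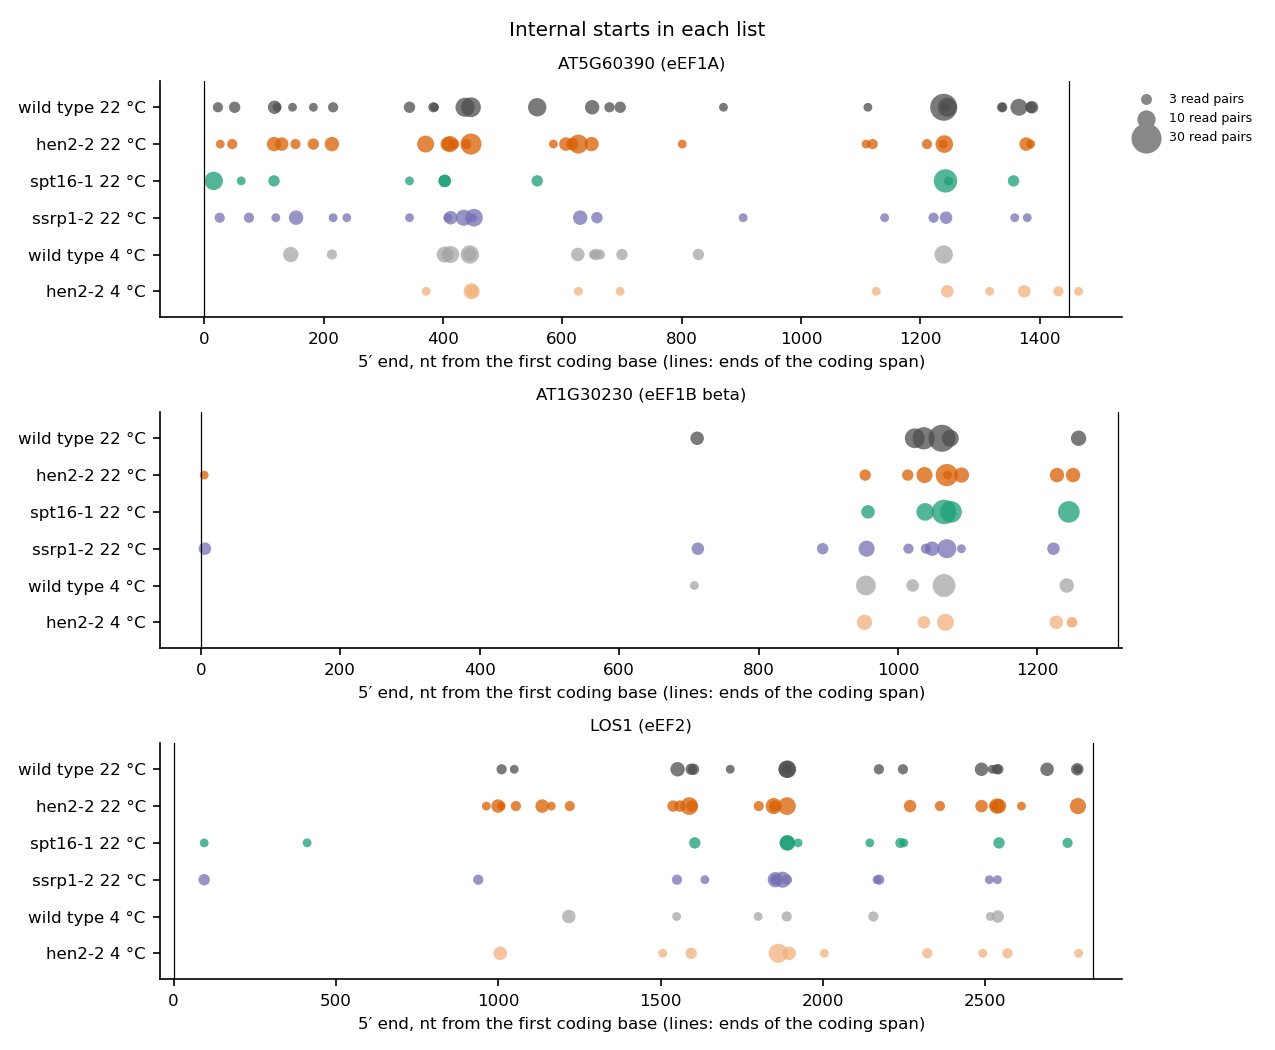
Each point is the 5′-end of 1 TIF-cluster with an internal start, as nt from the first coding base (x axis) in each list (rows), with an area proportional to its read pairs and lines at both ends of the coding span. At AT1G30230, 35 of the 41 points lie at 952 nt or beyond, and at *LOS1* 79 of the 82 lie at 938 nt or beyond.

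The other elongation and termination factors, a list of 12 genes, gave small counts of calls, given here beside the share of all genes called. In *hen2-2* against wild type, 3 of 10 measured genes were called higher (20.3% of all genes) and none lower (15.9%), the release factors *ERF1-3* at 2.28-fold and *ERF1-2* at 1.63-fold and the organelle elongation factor AT4G02930 at 1.52-fold. The interval of AT4G02930, 0.933 to 2.51, included 1. In *spt16-1* only *ERF1-3* was called of 10, at 2.18-fold higher (23%, and 16.2% lower). In *ssrp1-2* 3 of 10 were higher (22.1%) and 2 lower (18.7%). The higher ones were *ERF1-3* at 2.57-fold, AT4G02930 at 1.83-fold and the eEF1B gamma gene AT1G09640 at 1.62-fold. The lower ones were the release factor *ERF1-1* at a ratio of 0.644 and *SCO1*, which encodes the plastid elongation factor EF-G, at 0.663. The interval of *ERF1-1*, 0.311 to 1.28, included 1. In wild type at 4 °C none of 10 was higher (23.9%) and 2 were lower (18.8%), *ERF1-2* at a ratio of 0.194 and *SCO1* at 0.557. In *hen2-2*, 1 of 10 was higher (15.4%) and 4 lower (28.2%) at 4 °C than at 22 °C, and between the 4 °C lists 2 of 9 were higher in *hen2-2* (14.1%) and none lower (26.8%). TIF-clusters that ended before the coding sequence were found at *ERF1-1* in both *hen2-2* lists, at *ERF1-2* in *hen2-2* and at *RABE1b* in *hen2-2* at 4 °C.

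Among 556 other genes with at least 100 read pairs in every list, those whose log2 RPM over the 6 lists was most like the eEF1A sum were *CNX1* with a Pearson r of 0.983, *GRF10* with 0.980 and AT3G09200 with 0.959. For *LOS1* they were AT1G70600 with 0.989, AT1G09590 with 0.982 and AT4G18100 with 0.981. *CNX1*, for example, was at 402 RPM in wild type, 284 in *spt16-1* and 273 in *hen2-2* at 4 °C. An r over 0.9 was reached by 12 genes for eEF1A and 9 for *LOS1*, and the 6 points share depth and list, so these values describe the lists.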

How the data were processed

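TIF-seq libraries of *Arabidopsis* seedlings were analysed from 6 lists of TIF-clusters, each pooling 2 libraries. The deposited value is a count of read pairs per TIF-cluster. Per their methods, the authors trimmed reads, aligned them end to end to TAIR10 with STAR 2.6.1c, kept unique alignments, removed PCR copies by molecular identifiers, merged replicates, joined read pairs with both ends within 20 nt, dropped TIF-clusters with fewer than 3, and discarded those at genomic A runs or without a start in TSS-seq data. The 6 TSS-seq samples were not analysed here. No count below 3 is listed, so a gene without a TIF-cluster has no upper limit.

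TIF-clusters were placed on Araport11 genes in TAIR10.1, whose nuclear chromosomes are those of TAIR10, using matplotlib 3.10.9, scipy 1.17.1, pandas 2.3.3 and numpy 2.4.6 under Python 3.11.15. Levels are read pairs per 1000000 (RPM) of a list. Intervals are 95% Wilson (shares), exact Poisson (levels) and exact conditional binomial (ratios). The members and all lists of genes were chosen with earlier results of these data known. The genes named are the 9 members, listed factors past 1.5-fold, the 3 genes most like eEF1A or *LOS1*, and genes that check the labels and the tissue. AT3G12915, AT5G12120 and *RABE1b* were named in addition, after their values were seen. Alternatives covered minimum read pairs, assignment, definitions and scaling. The class that ends before the coding sequence, its 3′-end position and the joined sites were defined after the data were seen. Scripts were tested on simulated data.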

Additional observations from a re-analysis of the deposited data

Results flagged for a closer look

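AT5G19510, an eEF1B alpha gene, had ratios on opposite sides of 1 at 4 °C in the 2 genotypes, with neither counting interval reaching 1. Its ratio of 4 °C to 22 °C was 1.48 in wild type (104 against 86 read pairs) and 0.157 in *hen2-2* (13 against 160 read pairs). The first did not pass the 1.5-fold call and the second did. The difference between the genotypes was not tested, since each list is 1 value. The *hen2-2* list at 4 °C was the shallowest, and the part of that list in the result was not tested.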

How the results depend on the processing

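No paired analysis was possible because each list pools its 2 libraries and no replicate values were given, and for the same reason no replicate could be left out. The summed level of the 9 genes in wild type, 3314 RPM, was 3174 RPM with TIF-clusters of at least 5 read pairs and 2992 RPM with at least 10. The 98 TIF-clusters of wild type became 64 and 40 under these minimums, 52 under an equal minimum of RPM and 41 with TIF-clusters within 50 nt joined. The internal-start share of 13.8% became 11.1% and 7.57%. The 4 TIF-clusters near annotated starts in *hen2-2* became 2 and 0, 13 from the most used 5′-end and 19 where any TIF-cluster before the coding sequence was counted, a definition chosen after seeing the data. With whole-ORF TIF-clusters alone, AT5G60390 held 59.6% in place of 63.2% of eEF1A, and AT1G30230 56.0% in place of 69.1% of eEF1B beta. A 2-fold threshold left 12 of 22 calls. The number of calls was 19 with at least 5 read pairs per TIF-cluster, 15 with at least 10 and 17 with whole-ORF TIF-clusters alone. It was 21 with scaling by the median ratio and 27 without the filter on low values.

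Directions mostly held. With at least 10 read pairs the log2 ratio of AT5G12110 in *spt16-1* against wild type reversed from -0.70 to 0.79. No other called ratio of the 9 genes changed sign under the minimums, the whole-ORF count or the median scaling. With whole-ORF TIF-clusters alone, AT1G07940 gave no ratio, AT1G07920 lost its call in *hen2-2* against wild type, with 3 read pairs against 0, and the uncalled log2 ratio of AT2G18110 in *hen2-2* between temperatures went from 0.29 to -0.51. Depth limits AT1G07920, AT1G07940 and AT5G12110 most, with at most 43 read pairs in a list. Scaling by the median ratio ended the call of AT1G07930 between the 4 °C lists, at a ratio of 0.696.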
